A study of Saccharomyces cerevisiae with 18 samples.

Results

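The galactose (GAL) regulon of budding yeast (Saccharomyces cerevisiae) was followed through a shift to glucose, as the rows named GAL1, GAL2, GAL3, GAL4, GAL7, GAL10, GAL80, GCY1 and PGM2 in the gene tables of both strains, 9 of the 6596 features listed. All 9 had reads in each of the 18 libraries, so none was lost to a filter. Both strains were built to deplete a spliceosome protein by placing its gene behind the GAL1 promoter (PGAL1): YKL173w, or SNU114, in the Snu114 strain, and YPR082C, or DIB1, in the Dib1 strain. Both are labelled Mat alpha in the BY4742 background and carry ura3Δ0, met15Δ0, leu2Δ0 and his3Δ1, and the Snu114 strain is lys2Δ0 while the Dib1 strain is LYS2. Each strain gave 3 groups of 3 libraries of polyadenylated RNA: 8 h in YPD, the glucose medium, 4 h in YPD, and 6 h in YPGal, the galactose medium, as control. The glucose groups thus differ from the control in sugar, in time and in the loss of an overexpressed spliceosome protein, and what each contributes to a change cannot be told apart. A strain in which neither gene is driven by PGAL1 was not analysed here.

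In galactose, the sensor Gal3 binds the repressor Gal80 and frees the activator Gal4, which sits on short DNA sites before its target genes. The Leloir pathway then converts galactose to glucose 6-phosphate: Gal2 carries the sugar in, Gal1 phosphorylates it, Gal7 and Gal10 exchange and epimerise the sugar nucleotide, and Pgm2 isomerises the product. Glucose shuts these genes off through the Mig1 repressor and through lower levels of Gal4 itself, and the GAL1 promoter is for that reason a common switch for depletion experiments.

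The Gal4 site is written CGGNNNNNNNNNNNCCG and is shown because the members carry different numbers of it. It was searched in the 500 bases before each start codon of the R64 assembly, the same assembly as sacCer3. It reads the same on both strands, and it occurred in 179 of 6006 such windows (2.98%), with 2 or more copies in 7 windows (0.117%). GAL10 and GAL1 are divergent neighbours on chromosome II with 668 bases between their start codons (chrII:278353-279020), and they share 3 matches. The stretch that holds all 3 (chrII:278548-278641, the strand of GAL1) is given with the fixed bases of each site in capitals.
GAL10-GAL1 stretch: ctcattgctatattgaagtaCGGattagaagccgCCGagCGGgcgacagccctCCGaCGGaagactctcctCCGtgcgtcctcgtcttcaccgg
GAL2, which lies alone on chromosome XII, had 4 matches in its window, the last 2 of which overlap. They are listed from the far end of the window to the near end, on the strand of the gene (chrXII:289796-289812, chrXII:289815-289831, chrXII:289879-289895 and chrXII:289884-289900).
GAL2 site 1: CGGcggtctttcgtCCG
GAL2 site 2: CGGagatatctgcgCCG
GAL2 site 3: CGGggcggatcactCCG
GAL2 site 4: CGGatcactccgaaCCG
GAL7, GAL3, GAL80, GCY1 and GAL4 had 1 match each, at chrII:275703-275719 (minus strand), chrIV:463146-463162, chrXIII:171422-171438, chrXV:550745-550761 and chrXVI:82810-82826 (minus strand).
GAL7 site: CGGacaactgttgaCCG
GAL3 site: CGGtccactgtgtgCCG
GAL80 site: CGGcgcactctcgcCCG
GCY1 site: CGGggcagactattCCG
GAL4 site: CGGtggcgcaggatCCG
PGM2 had 0 matches in its window. Hexamers of the Mig1 type (GCGGGG or GTGGGG or CCGGGG or CTGGGG, on either strand) occurred in 1364 of the 6006 windows (22.7%). GAL1, GAL10, GAL3 and GAL4 had 2 of them, GAL80, GCY1 and PGM2 had 1, and GAL2 and GAL7 had 0. GAL1 and GAL10 share the same 2, as their windows overlap. The hexamer of GCY1 overlapped its Gal4 match, and no other hexamer of a member did. A match is a string of letters and not a measured binding site.

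The libraries held 17065989 to 58615022 gene reads. The deposited values are normalised counts, that is, reads divided by 1 size factor per library within a strain. The labelled deletions were checked. LYS2 had at most 2.84 normalised counts in the Snu114 libraries, where it is deleted, and 2973 to 3560.4 in the Dib1 libraries. LEU2, URA3 and MET17, whose older name is MET15, are deleted in both strains and had 0 reads in all 18. HIS3, of which his3Δ1 removes only a part, had 1191 to 2788 normalised counts. The mating type went against the label in the Dib1 strain. The 5 a-cell markers (MFA1, MFA2, STE2, HMRA1 and BAR1) summed to 257 to 428 normalised counts in the Snu114 libraries and to 38863 to 58964 in the Dib1 libraries. The 3 alpha-cell markers (MF(ALPHA)1, MF(ALPHA)2 and STE3) summed to 79648 to 114541 in the Snu114 libraries and to 74.8 to 423 in the Dib1 libraries. Its part in the comparisons between strains was not tested, and comparisons within a strain do not involve it.

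The 3 enzymes and the permease stood together at the top of the galactose libraries and lost over 99.8% of their level in glucose in each strain at each time. GAL1 (YBR020W, chrII:279021-280607), for galactokinase, had 248, 229 and 149 normalised counts after 8 h and 182, 233 and 333 after 4 h in the Snu114 strain, against 191268, 248010.4 and 224122 in galactose. GAL1 in the Dib1 cells had 240.1, 255 and 268 after 8 h and 235, 179 and 287 after 4 h, against 217134, 280094 and 302254 in galactose. Every glucose library thus lay far below every galactose library, with no overlap. GAL10 (YBR019C, chrII:276253-278352), for the epimerase and mutarotase, had 95.5, 144 and 117 after 8 h and 97.6, 71.7 and 186 after 4 h in the Snu114 strain, against 185824, 205079 and 215419 in galactose. GAL10 in the Dib1 cells had 69.2, 72.5 and 107 after 8 h and 178, 104 and 98.0 after 4 h, against 201597, 238713 and 247876 in galactose. GAL10 had the lowest mean share of its galactose level of the 4 genes in each glucose group. Its libraries overlapped those of GAL2 except after 8 h in the Dib1 strain. After 4 h the lowest GAL2 library, at 0.0284% in the Snu114 strain and 0.0319% in the Dib1 strain, lay below every GAL10 library.

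GAL7 (YBR018C, chrII:274427-275527), for galactose-1-phosphate uridylyltransferase, had 157, 163 and 134 normalised counts after 8 h and 81.2, 104 and 133 after 4 h in the Snu114 strain, against 119513, 142451 and 102524 in galactose. GAL7 in the Dib1 cells had 124, 94.1 and 118 after 8 h and 88.2, 155 and 108 after 4 h, against 130956, 162888 and 114903 in galactose. All glucose values of GAL7 lay far below galactose. After 8 h those of the Snu114 strain lay above those of the Dib1 strain, but each strain has its own scale. With all libraries scaled together the difference did not pass (0.52 ± 0.21, limma adjusted p = 0.14). GAL2 (YLR081W, chrXII:290212-291936), for the galactose permease, had 95.5, 93.4 and 58.4 after 8 h and 31.9, 69.1 and 110.2 after 4 h in the Snu114 strain, against 99538, 135129 and 102325 in galactose. GAL2 in the Dib1 cells had 84.4, 89.5 and 81.3 after 8 h and 94.6, 84.1 and 36.4 after 4 h, against 96290.2, 134621 and 111579.7 in galactose. The glucose libraries of GAL2 overlapped between times and, with each strain on its own scale, between strains. None came near galactose, and the lowest library of GAL2 rested on 26 reads.

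All 4 genes fell in all 4 comparisons with galactose. The limma estimates on the log2(normalised count + 1) scale ran from -9.63 ± 0.19 (SE) for GAL7 after 8 h in the Snu114 strain to -11.44 ± 0.24 for GAL10 after 8 h in the Dib1 strain. The adjusted p of the 16 estimates was at most 1.7e-07, the value of GAL2 after 8 h in the Snu114 strain. As ratios of group means, the level in glucose was 803-fold (GAL7, Snu114 strain, 8 h) to 2765-fold (GAL10, Dib1 strain, 8 h) lower. Over the regulon, 8 of the 9 members were lower after 8 h and 9 of 9 after 4 h in the Snu114 strain, where 5.71% of all 6447 genes tested were called lower after 8 h and 7.68% after 4 h. In the Dib1 strain 9 of 9 members were lower at both times, where 15.1% of genes were called lower after 8 h and 10% after 4 h. No member was called higher against galactose in either strain, where 3.27% of genes after 8 h and 3.78% after 4 h in the Snu114 strain and 13.7% and 5.17% in the Dib1 strain were. The median log2 change of the 9 members was -4.94 after 8 h and -5.25 after 4 h in the Snu114 strain and -5.68 and -5.71 in the Dib1 strain, beside a median over all genes of at most 0.011. Bulk RNA does not tell fewer expressing cells from less RNA in each cell.

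**Figure D1:**
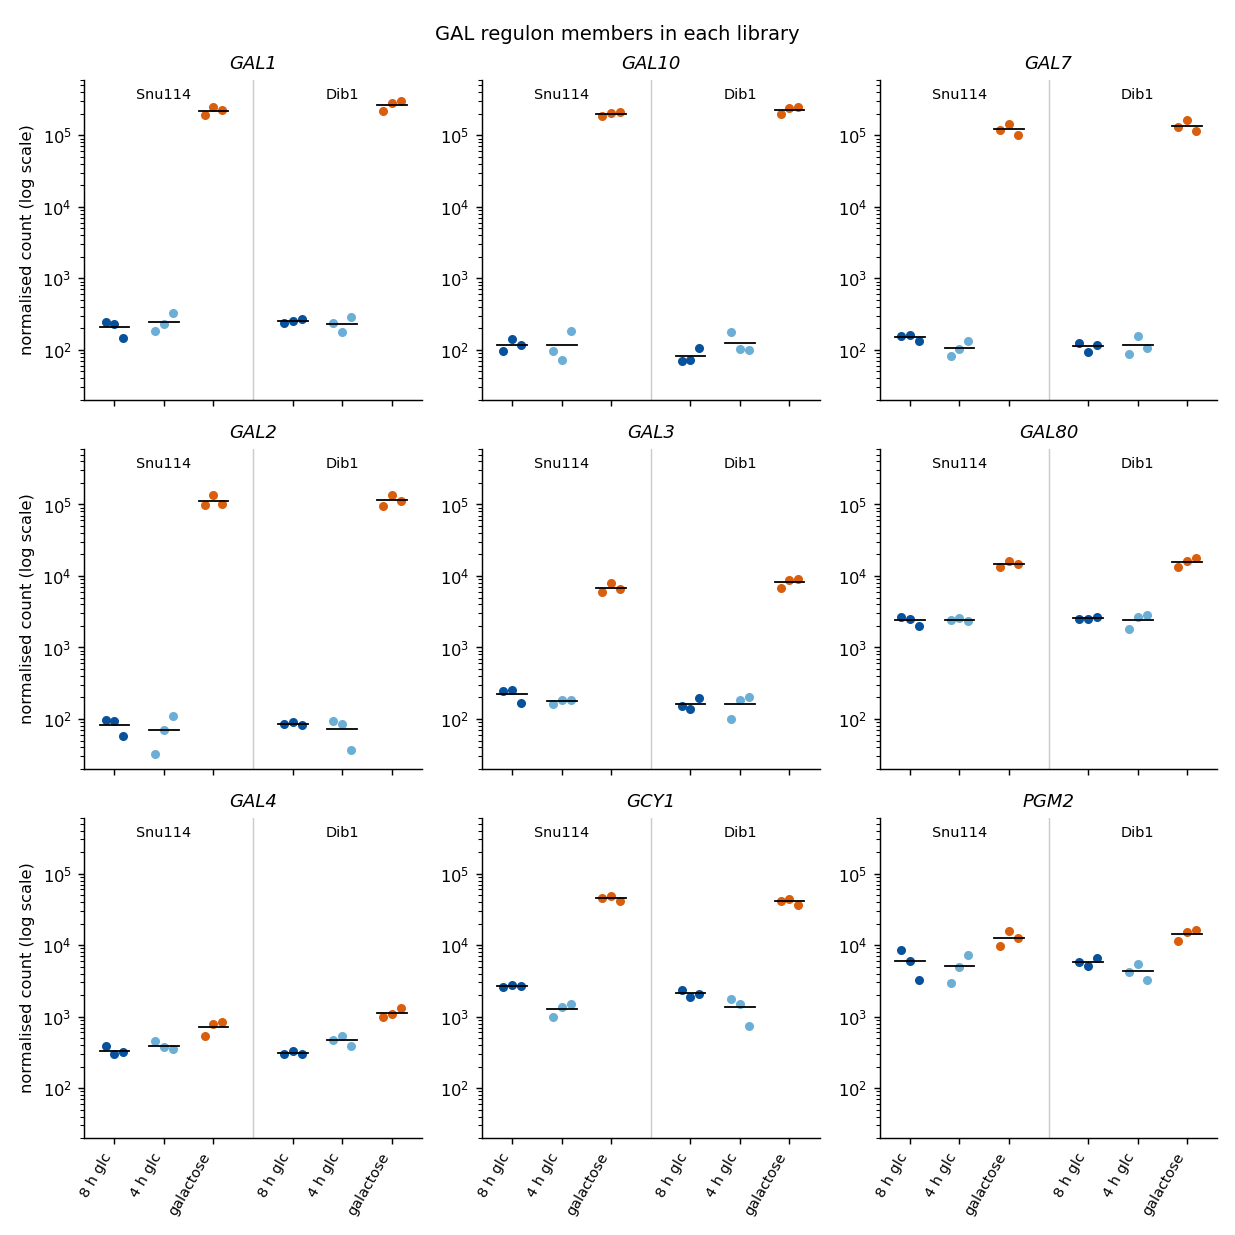
Normalised count (log scale) of each GAL regulon member in each of the 18 libraries; points are libraries, bars are means of 3, and each panel shows 8 h glucose (glc), 4 h glucose and galactose for the Snu114 and then the Dib1 strain. The glucose and galactose points are 803-fold to 2765-fold apart in the mean for GAL1, GAL10, GAL7 and GAL2, and 1.82-fold to 3.64-fold apart for GAL4 and PGM2.

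Together the 9 members took 0.0562% ± 0.0113 (SD, n = 3) of gene reads after 8 h and 0.0426% ± 0.0120 after 4 h in the Snu114 strain, against 3.32% ± 0.240 in galactose. In the Dib1 strain they took 0.0492% ± 0.00411 after 8 h and 0.0399% ± 0.00690 after 4 h, against 3.53% ± 0.322 in galactose. GAL1 alone made up 0.995% ± 0.102 of gene reads in the Snu114 strain and 1.14% ± 0.160 in the Dib1 strain in galactose. The share was lower in glucose in each of the 4 comparisons with p = 0.1 by an exact two-sided permutation test, the smallest p that 3 libraries against 3 allow. Between 8 h and 4 h the exact p was 0.2 in both strains. The exact binomial 95% interval of the share in a single library spanned at most 0.0173 percentage points, which covers counting error only.

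The residual level in glucose sorted the members into tiers that were the same in both strains. Set against the galactose mean of the same strain, GAL10 kept 0.0588% ± 0.0121 after 8 h and 0.0586% ± 0.0297 after 4 h in the Snu114 strain, and 0.0362% ± 0.00914 and 0.0552% ± 0.0194 in the Dib1 strain (SD over 3 glucose libraries). GAL1 kept 0.0944% ± 0.0239 after 8 h and 0.113% ± 0.0347 after 4 h in the Snu114 strain, and 0.0955% ± 0.00531 and 0.0877% ± 0.0203 in the Dib1 strain. GAL2 and GAL7 lay between 0.0627% and 0.125% in the 4 groups. These 4 genes, the lowest tier, were also the 4 with the highest levels per length in galactose. They had 26 or more reads in every glucose library. The part of reads carried over from other libraries in these residual levels was not tested. Genes that should be silent in a strain also had some reads, as the ranges of LYS2 and of the mating-type markers above show. The strand setting of the counting is not given in the sources used here, so sense and antisense reads over GAL10, a gene with known antisense transcription in glucose, cannot be told apart.

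The regulators GAL3, GAL80 and GAL4 fell far less, each by its own amount. GAL3 (YDR009W, chrIV:463434-464996), for the galactose sensor, had 244, 255 and 168 normalised counts after 8 h and 162, 184 and 183 after 4 h in the Snu114 strain, against 5983, 7887 and 6518 in galactose. GAL3 in the Dib1 cells had 150.0, 137 and 194 after 8 h and 99.7, 183 and 204 after 4 h, against 6778, 8853 and 9185 in galactose. It kept 3.28% ± 0.697 after 8 h and 2.60% ± 0.178 after 4 h in the Snu114 strain, and 1.94% ± 0.359 and 1.96% ± 0.669 in the Dib1 strain. No glucose library came near a galactose library. The log2 change of GAL3 passed in all 4 comparisons, at -4.94 ± 0.18 for 8 h and -5.25 ± 0.18 for 4 h in the Snu114 cells, and at -5.68 ± 0.27 and -5.71 ± 0.27 in the Dib1 cells (limma adjusted p of at most 1.3e-06). GAL3 is the paralog of GAL1, and in galactose its level was much the lower. Their coding sequences are 69.0% identical, with a longest identical run of 22 bases.

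GAL80 (YML051W, chrXIII:171594-172901), for the repressor that Gal3 removes from Gal4, had 2691, 2538 and 1993 normalised counts after 8 h and 2406, 2581 and 2348 after 4 h in the Snu114 strain, against 13235, 16369.8 and 14895 in galactose. GAL80 in the Dib1 cells had 2476, 2535 and 2631 after 8 h and 1821, 2639 and 2881 after 4 h, against 13309, 16402 and 17722 in galactose. The glucose ranges of GAL80 overlapped between times and, with each strain on its own scale, between strains, and lay well below galactose. Its residual level varied little over the 4 group means, at 16.2% ± 2.47 and 16.5% ± 0.818 in the Snu114 strain and 16.1% ± 0.496 and 15.5% ± 3.51 in the Dib1 strain for 8 h and 4 h. The log2 change of GAL80 passed in all 4 comparisons, at -2.63 ± 0.14 for 8 h and -2.60 ± 0.14 for 4 h in the Snu114 cells, and at -2.62 ± 0.17 and -2.71 ± 0.17 in the Dib1 cells (limma adjusted p of at most 1.1e-05). In glucose the RNA of GAL80 was far above that of GAL3 per length of gene. The 4 group means were 80.1 to 85.3 RPKM against 4.40 to 6.59 RPKM (RPKM, gene reads scaled to gene length and library depth). Protein was not measured.

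GAL4 (YPL248C, chrXVI:79711-82356), for the activator, was the member lowest in galactose. It had 383, 304 and 315 normalised counts after 8 h and 451, 377 and 353 after 4 h in the Snu114 strain, against 536, 779 and 831 in galactose. GAL4 in the Dib1 cells had 298, 331 and 295 after 8 h and 467, 538 and 391 after 4 h, against 979, 1082 and 1301 in galactose. The glucose and galactose ranges did not overlap in either strain. GAL4 kept 46.6% ± 5.99 after 8 h and 55.0% ± 7.13 after 4 h in the Snu114 strain, and 27.5% ± 1.77 and 41.5% ± 6.55 in the Dib1 strain. Its log2 change passed with -1.08 ± 0.19 (limma adjusted p = 0.0085) after 8 h and -0.84 ± 0.19 (adjusted p = 0.023) after 4 h in the Snu114 strain. The same change was -1.85 ± 0.16 (limma adjusted p = 5.7e-05) after 8 h and -1.27 ± 0.16 (adjusted p = 0.00089) after 4 h in the Dib1 strain. The 4 h call in the Snu114 strain was lost without replicate 2 or 3 of either group, with an adjusted p of 0.06 to 0.096.

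GCY1 and PGM2 are reported Gal4 targets outside the core pathway genes, and they behaved differently from each other. GCY1 (YOR120W, chrXV:551114-552052), for a glycerol dehydrogenase of the aldo-keto reductase family, had 2627, 2730.2 and 2688 normalised counts after 8 h and 973, 1380.4 and 1486 after 4 h in the Snu114 strain, against 45999, 49123 and 41373 in galactose. GCY1 in the Dib1 cells had 2346, 1879 and 2104 after 8 h and 1785, 1520.2 and 741 after 4 h, against 41694, 44074 and 36829 in galactose. The 3 groups of a strain did not overlap, with 4 h the lowest in both. GCY1 kept 5.89% ± 0.115 after 8 h and 2.81% ± 0.595 after 4 h in the Snu114 strain, and 5.16% ± 0.571 and 3.30% ± 1.33 in the Dib1 strain. GCY1 fell in all 4 comparisons, with log2 changes of -4.08 ± 0.16 for 8 h and -5.17 ± 0.16 for 4 h in the Snu114 cells and of -4.28 ± 0.28 and -5.01 ± 0.28 in the Dib1 cells, and limma adjusted p-values of at most 8e-06. Its relative YPR1 is 66.3% identical over the coding sequence, with a longest identical run of 15 bases.

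PGM2 (YMR105C, chrXIII:475897-477606), for the major phosphoglucomutase, stayed closest to its galactose level together with GAL4, and its replicates differed widely in the Snu114 strain. It had 8627, 5945 and 3296 normalised counts after 8 h and 2935, 5007 and 7225 after 4 h in the Snu114 strain, against 9672, 15975 and 12580.4 in galactose. PGM2 in the Dib1 cells had 5799, 5075 and 6551 after 8 h and 4264, 5462 and 3206 after 4 h, against 11502, 15405 and 16242 in galactose. No glucose library reached a galactose library of its strain. The estimate in the Snu114 strain was -1.17 ± 0.39 after 8 h (limma adjusted p = 0.10) and -1.40 ± 0.39 after 4 h (adjusted p = 0.049), and only the second passed the test. PGM2 fell in the Dib1 strain, by estimates of -1.30 ± 0.21 after 8 h (limma adjusted p = 0.0014) and -1.76 ± 0.21 after 4 h (adjusted p = 0.00047). The Snu114 call after 4 h was lost with the replicate number as a block (adjusted p = 0.055) and without any 1 of 5 of its 6 libraries (adjusted p 0.085 to 0.18). DESeq2 on the recovered reads called the Snu114 change after 8 h too (-1.10, adjusted p = 0.032).

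The spread of PGM2 in the Snu114 strain went with other genes of the same libraries. HXK1, for the hexokinase used on poor carbon sources, had 26557, 14987 and 9904 normalised counts in replicates 1, 2 and 3 after 8 h and 12724, 17129 and 36712 after 4 h, in the same order within each group as PGM2. The 16 stress and reserve carbohydrate genes of a list with HXK1, HSP12, CTT1 and TSL1 summed to 198314, 163395 and 138697 after 8 h and to 87010.6, 120071.7 and 186489 after 4 h, again in that order. In galactose the sum was 198292, 278295 and 247758, where PGM2 and HXK1 kept that order too. The order was not particular to the Snu114 strain, as PGM2 and the sum shared it in each Dib1 group. The Dib1 sums were 213681, 186547 and 223136 after 8 h, 131184, 137506 and 91033 after 4 h, and 159461, 196227 and 220141 in galactose. Of the 16 genes 0 rose and 2 fell after 8 h, and 0 rose and 4 fell after 4 h, in the Snu114 strain, and in the Dib1 strain 4 rose and 3 fell after 8 h and 1 rose and 5 fell after 4 h. Over all genes, 3.27% rose and 5.71% fell after 8 h, and 3.78% and 7.68% after 4 h, for Snu114 cells. For Dib1 cells these shares were 13.7% and 15.1% after 8 h and 5.17% and 10% after 4 h. For the 16 genes the median log2 change was -0.40 after 8 h and -0.61 after 4 h in the Snu114 cells. It was -0.11 and -0.54 in the Dib1 cells. The part of these genes in the PGM2 values was not tested.

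**Figure D2:**
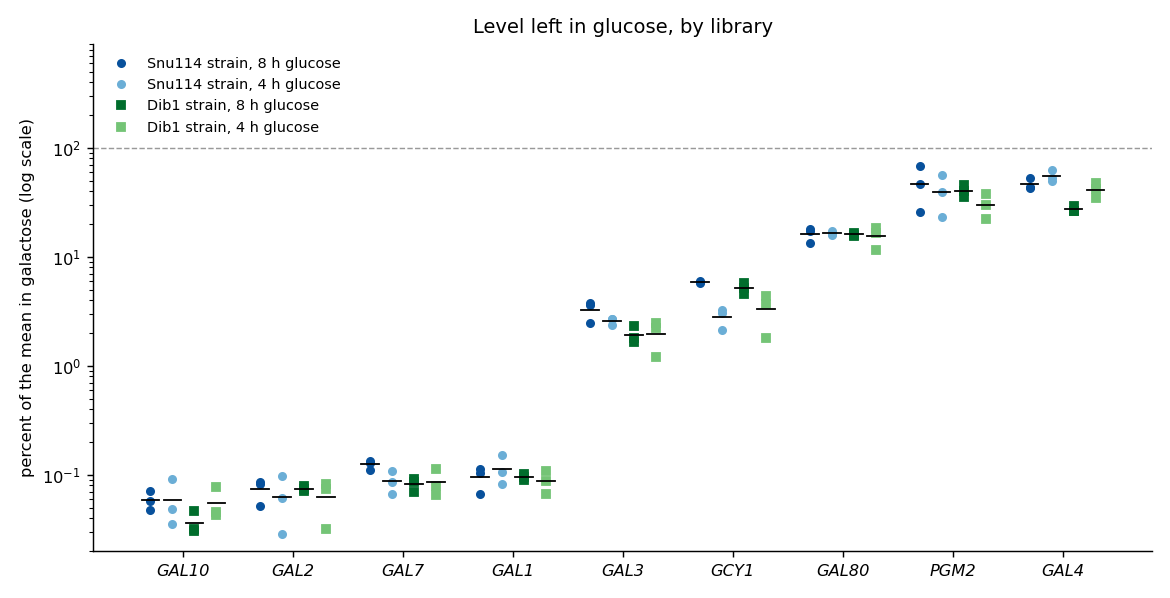
Level of each member in each glucose library as a percent of the mean of the 3 galactose libraries of the same strain (log scale, dashed line at the galactose mean); points are libraries and bars are means of 3. GAL10, GAL2, GAL7 and GAL1 lie between 0.0284% and 0.150%, GAL3 and GCY1 between 1.21% and 6.00%, GAL80 between 11.5% and 18.2%, and PGM2 and GAL4 between 22.3% and 67.7%.

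Between 8 h and 4 h in glucose, 1 member in each strain passed the test, and none of the 3 enzymes, the permease, GAL3 or GAL80 did. In the Snu114 strain GCY1 rose by 1.09 ± 0.16 on the log2 scale (limma adjusted p = 0.013), the only call among the 9, where 1.24% of genes were called higher and 0.667% lower. These all-gene counts, 80 higher and 43 lower, were themselves unstable. They were 3 and 3 without replicate 2 after 8 h, 3 and 2 without replicate 1 after 4 h, 19 and 12 without replicate 1 after 8 h, 7 and 4 without replicate 2 after 4 h, and 205 and 180 with the replicate block. The 3 values of GCY1 after 8 h lay above all 3 after 4 h. In the Dib1 cells, GAL4 fell by 0.58 ± 0.16 (adjusted p = 0.043), the only call, where 5.79% of genes were called lower and 8.62% higher. The 8 h and 4 h values of GAL4 did not overlap in that strain. Both calls depend on single libraries: that of GCY1 was lost without replicate 1 or 2 of either group (adjusted p 0.057 to 0.073), and that of GAL4 without any of 5 of the 6 libraries (adjusted p 0.053 to 0.15).

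GCY1 in the Dib1 strain also had all 3 libraries after 8 h above those after 4 h, with an estimate of 0.73 ± 0.28 and an adjusted p of 0.11, which became 0.98 and 0.03 without replicate 1 after 4 h. GAL1 had an estimate of -0.24 ± 0.25 (95% interval -0.79 to 0.31) in the Snu114 strain and 0.15 ± 0.18 (-0.26 to 0.55) in the Dib1 strain. For GAL80 the interval was -0.34 to 0.27 in the Snu114 strain and -0.31 to 0.48 in the Dib1 strain. The intervals of GAL2 were wider, -0.50 to 1.22 and -0.33 to 1.04. For 2 enzymes the interval left out 0 in 1 strain, though the adjusted p did not pass. GAL7 had 0.53 ± 0.19 (0.10 to 0.96, limma adjusted p = 0.23) in the Snu114 strain, and -0.03 (-0.52 to 0.45) in the Dib1 strain. GAL10 had -0.58 ± 0.24 (-1.12 to -0.04, limma adjusted p = 0.14) in the Dib1 strain, and 0.10 (-0.57 to 0.77) in the Snu114 strain. Of the stress and reserve list, 1 of 16 rose between these times in the Snu114 strain, and 0 fell. In the Dib1 strain 7 of 16 rose, among them DDR2, CTT1 and ALD4, and 0 fell. The shares of all genes called higher and lower were 1.24% and 0.667% in the Snu114 strain and 8.62% and 5.79% in the Dib1 strain.

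**Figure D3:**
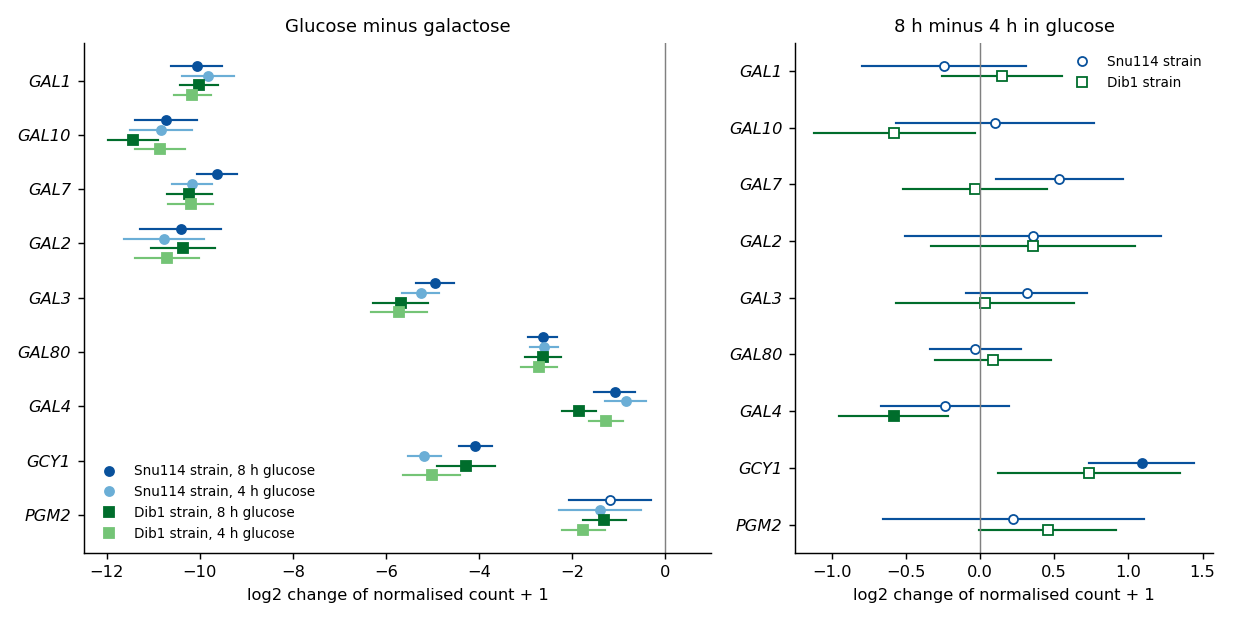
Limma log2 change of the normalised count + 1 for each member, with 95% intervals; the left panel gives glucose minus galactose for 4 comparisons and the right panel 8 h minus 4 h in glucose for both strains. Filled symbols passed the adjusted p threshold of 0.05 and open ones did not: PGM2 after 8 h in the Snu114 strain is open on the left, and GCY1 in the Snu114 strain and GAL4 in the Dib1 strain are the filled ones on the right.

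Whether the response differed between strains was tested as the change in the Snu114 strain minus that in the Dib1 strain, with limma on all 18 libraries. At 8 h against galactose 0 of 9 members passed, where 3.20% of 6476 genes were called higher and 3.24% lower. 2 of them, GAL4 and GAL3, reached 0.05 without adjustment. Under edgeR 0 were called, and under DESeq2 GAL4 alone. The difference for GAL4 was 0.77 ± 0.25 (adjusted p = 0.089, and 0.037 with DESeq2), with less loss in the Snu114 strain, and for GAL3 0.74 ± 0.34 (adjusted p = 0.24). At 4 h against galactose 0 of 9 passed, where 0.340% of genes were called higher and 0.154% lower, and between 8 h and 4 h 0 of 9 passed, where 0.170% were called higher and 0.448% lower. In both, 0 members reached 0.05 without adjustment, and the calls of edgeR and of DESeq2 were 0. The mating type and LYS2 differ between the strains along with the driven gene.

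Levels were also compared between strains after scaling all 18 libraries together. No member passed in galactose, after 4 h or after 8 h by limma, edgeR or DESeq2. Over all genes 0.587% were called higher and 0.865% lower in the Snu114 strain in galactose, 1.64% and 0.602% after 4 h, and 5.19% and 6.11% after 8 h. An unadjusted p under 0.05 was reached by GAL4 in galactose (-0.58 ± 0.18, adjusted p = 0.17) and by GAL7 and GAL3 after 8 h (0.52 ± 0.21 and 0.55 ± 0.24, adjusted p 0.14 and 0.17), and by 0 members after 4 h.

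Per length of gene, the order of the members turned over between the sugars. In galactose it was GAL1, GAL7, GAL10, GAL2, GCY1, GAL80, PGM2, GAL3 and GAL4 in both strains. The level ran from 6267 ± 642 RPKM for GAL1 to 12.2 ± 2.55 RPKM for GAL4 in the Snu114 strain, and from 7165 ± 1009 to 18.1 ± 2.26 RPKM in the Dib1 strain. GAL1 and GAL7, and GAL7 and GAL10, overlapped in their libraries, while all other neighbours in that order were separate. Among 5861 genes GAL1 ranked at percentile 99.9 in galactose in both strains, and GAL4 at percentile 12.3 in the Snu114 cells and 15.7 in the Dib1 cells.

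In glucose PGM2, GCY1 and GAL80 led, between 58.5 and 159.6 RPKM in the group means. The other 6 lay between 1.69 and 7.55 RPKM, with GAL10 and GAL2 the lowest pair in all 4 groups. GCY1 stood above GAL80 after 8 h and below it after 4 h in both strains, with separate libraries in the Snu114 strain and overlapping ones in the Dib1 strain. GAL1 stood at 6.07 ± 1.19 RPKM after 8 h and 6.77 ± 2.33 after 4 h in the Snu114 strain, and at 6.88 ± 0.414 and 6.30 ± 1.35 in the Dib1 strain. Its rank there lay between percentiles 8.80 and 10.5, beside GAL4, with 4.99 to 7.55 RPKM. GAL1 overlapped with its neighbours on both sides, GAL7 and GAL4, after 8 h in the Snu114 cells and after 4 h in the Dib1 cells. It overlapped with GAL4 below it but not with GCY1 above it after 4 h in the Snu114 cells, and with neither neighbour after 8 h in the Dib1 cells.

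**Figure D4:**
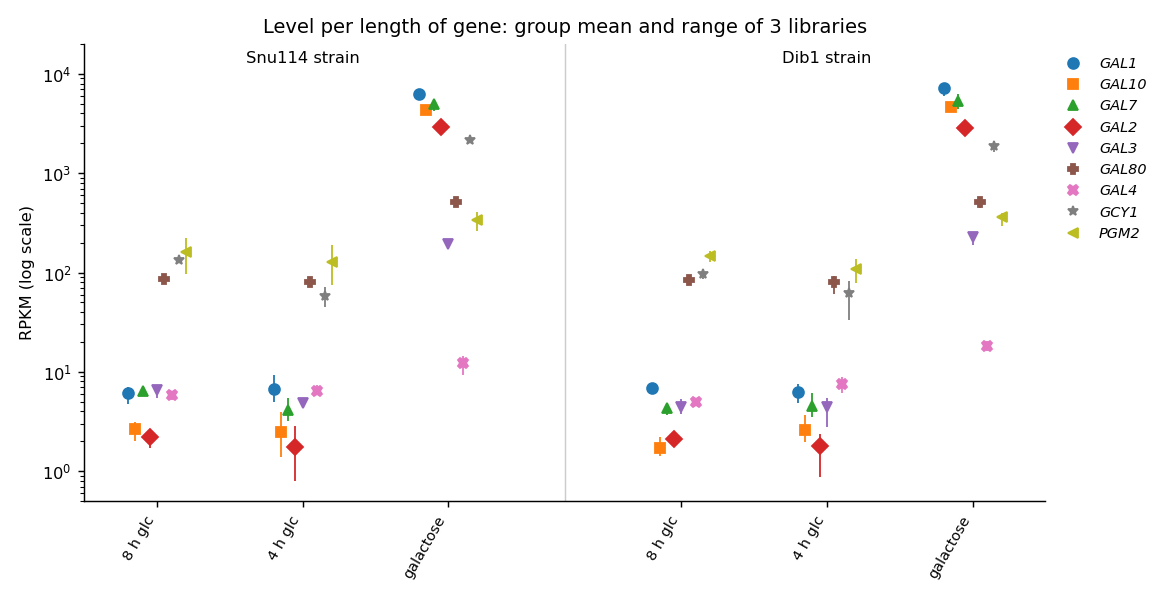
Level per length of gene (RPKM, log scale) of the 9 members in the 3 groups of the Snu114 strain (left) and of the Dib1 strain (right); symbols are means of 3 libraries and vertical lines their range. GAL1 is highest in galactose at 6267 and 7165 RPKM and lies among the 6 lowest members in glucose, where PGM2, GCY1 and GAL80 lead.

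The driven genes share the promoter of GAL1 but not its transcribed region, and their reads did not fall in proportion to it. SNU114 in the Snu114 strain had 1180.4, 1252 and 1501 normalised counts after 8 h and 1210.0, 1247 and 1130.5 after 4 h, against 161818, 159504 and 186566 in galactose. Per base of gene, SNU114 had 3.55 ± 1.52 reads per GAL1 read after 8 h and 2.69 ± 0.861 after 4 h, against 0.406 ± 0.0595 in galactose (SD, n = 3). The ratio was thus 3.06 higher after 8 h and 2.69 higher after 4 h on the log2 scale. DIB1 in the Dib1 strain had 265, 246 and 283 normalised counts after 8 h and 244, 249 and 263 after 4 h, against 121968, 127214 and 117804 in galactose. Both driven genes were thus far lower in glucose, though not as far as GAL1. Per base of gene, DIB1 had 3.83 ± 0.262 reads per GAL1 read after 8 h and 4.10 ± 0.906 after 4 h, against 1.72 ± 0.319 in galactose, which is 1.17 and 1.25 higher on the log2 scale. The ratios in glucose and galactose did not overlap in either strain, with p = 0.1 in each comparison by an exact two-sided permutation test, the smallest this design allows. Behind its own promoter, in the Dib1 strain, SNU114 had 3419.9, 3546 and 2879 normalised counts after 8 h and 3524, 2994 and 2653 after 4 h, against 2602, 2438 and 2428 in galactose. Behind its own promoter, in the Snu114 strain, DIB1 had 971, 1055 and 1168 after 8 h and 978, 991 and 972 after 4 h, against 1148, 1225 and 1469.9 in galactose. The driven copy of each gene was below these native levels in glucose and above them in galactose, with each strain on its own scale. With all libraries scaled together, the log2 level in the Snu114 strain minus that in the Dib1 strain had the same directions. For SNU114 it was 6.17 in galactose and -1.24 at both times in glucose. For DIB1 it was -6.50 in galactose, 2.09 after 8 h and 2.05 after 4 h (limma adjusted p of at most 1.1e-05 for both genes). With GAL10 in place of GAL1 the log2 differences of the ratio from galactose were 3.73 after 8 h and 3.71 after 4 h in the Snu114 strain and 2.60 and 1.95 in the Dib1 strain.

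**Figure D5:**
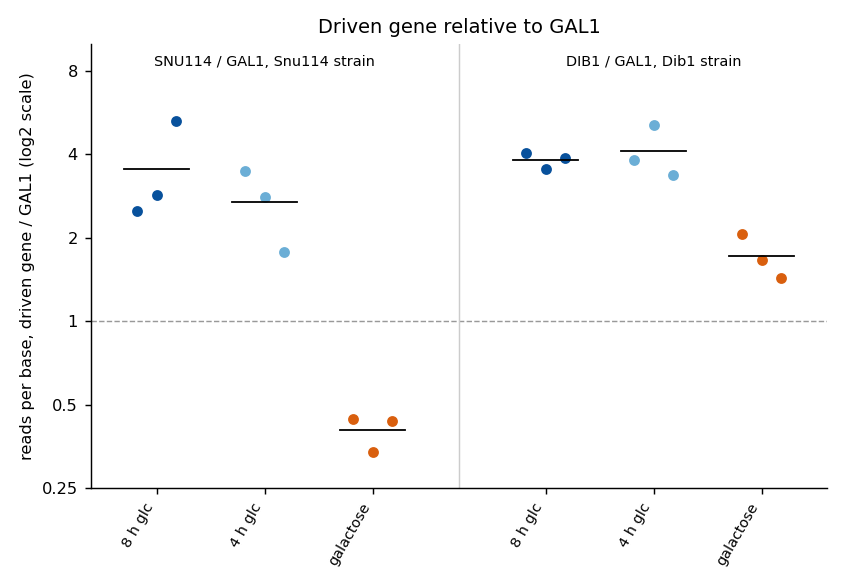
Reads per base of the driven gene divided by reads per base of GAL1 in the same library (log2 scale, dashed line at equal levels), for SNU114 in the Snu114 strain and DIB1 in the Dib1 strain; points are libraries and bars are means of 3. All glucose points lie above the galactose points of their strain, with means of 3.55 and 2.69 against 0.406 for SNU114 and 3.83 and 4.10 against 1.72 for DIB1.

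Other reported Gal4 targets fell too, by less than GAL1, GAL10, GAL7, GAL2, GAL3 and GCY1. Their scale was not below that of every member. In the Snu114 strain GAL80 changed by -2.63 after 8 h and GAL4 by -0.84 after 4 h. All 3 of the list, MTH1, PCL10 and FUR4, fell in the 4 comparisons with galactose, where 5.71% to 15.1% of all genes were called lower. MTH1, for a corepressor of hexose transporter genes, had log2 changes of -2.67 after 8 h and -1.39 after 4 h in the Snu114 cells and of -2.51 and -1.53 in the Dib1 cells. It had 2086, 1802 and 1785 normalised counts after 8 h and 5384, 4102 and 4332 after 4 h in the Snu114 strain, against 9524, 12805 and 14072 in galactose, and its change of -1.28 between 8 h and 4 h passed there (limma adjusted p = 0.012). For PCL10, a cyclin of the Pho85 kinase, they were -1.59 and -1.59 in the Snu114 cells and -1.47 and -1.31 in the Dib1 cells. FUR4, for the uracil permease, lies next to GAL1 on chromosome II and had changes of -1.70 and -1.58 in the Snu114 cells and of -1.52 and -1.42 in the Dib1 cells. MTH1 and PCL10 had 1 Gal4 match in their window and FUR4 had 0.

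The fall did not extend over the other neighbours of the GAL7-GAL10-GAL1 cluster. KAP104, for a nuclear import receptor beside GAL7, rose in all 4 comparisons, by 0.46 after 8 h and 0.53 after 4 h in the Snu114 strain and by 0.53 and 0.74 in the Dib1 strain. YBR016W, the next gene out, rose in 1 comparison, by 0.70 ± 0.21 after 8 h in the Dib1 strain (limma adjusted p = 0.034). POA1, beyond FUR4, passed in none of the 4, with group means between 739 and 944 normalised counts.

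Genes of galactose use outside the 9 members went different ways. PGM1, for the minor phosphoglucomutase, had 3365, 3404 and 2765 normalised counts after 8 h and 3836, 3963 and 2944 after 4 h in the Snu114 strain, against 1356, 1555 and 1562 in galactose. It rose by 1.09 and 1.25 there and by 0.34 and 0.64 in the Dib1 strain, so that PGM1 was higher in glucose in all 4 comparisons while its paralog PGM2 had negative estimates. The coding sequences of the pair are 72.8% identical, with a longest identical run of 23 bases. LAP3, for an aminopeptidase also known as Gal6, fell in the Dib1 strain, with changes of -1.33 after 8 h and -1.77 after 4 h, and passed in 0 comparisons of the Snu114 strain. UGP1, for UDP-glucose pyrophosphorylase, and YPR1 passed in none of the 4. A call in 1 strain alone does not show a difference between strains. In the limma test of that difference, 0 of PGM1, UGP1, LAP3 and YPR1 passed at 4 h against galactose and 1 passed at 8 h. Over all genes 3.20% were called higher and 3.24% lower at 8 h.

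Among 14 genes of glucose repression, 2 rose and 0 fell after 8 h and 3 rose and 1 fell after 4 h in the Snu114 strain, and 5 rose after 8 h and 2 rose after 4 h in the Dib1 strain with 0 falls. Among all genes tested, 3.27% were called higher after 8 h and 3.78% after 4 h in the Snu114 strain, and 13.7% and 5.17% in the Dib1 strain. The shares called lower were 5.71%, 7.68%, 15.1% and 10% in the same order. The median log2 change of the list was 0.08 for both times in the Snu114 cells and 0.19 and 0.13 in the Dib1 cells for 8 h and 4 h. MIG2, for a relative of the repressor Mig1, had 2725, 2559 and 2053 normalised counts after 8 h and 4844, 3728 and 3042 after 4 h in the Snu114 strain, against 261, 308 and 241 in galactose. It rose by 3.17 and 3.82 in the Snu114 strain and by 4.96 and 5.03 in the Dib1 strain, in the direction opposite to the GAL genes. MIG3, for another member of that family, rose by 1.85 and 2.27 in the Snu114 strain and by 0.86 and 1.86 in the Dib1 strain. HXK2, for the hexokinase active in glucose, rose by 1.5 and NRG1, for another repressor, fell by 0.96 after 4 h in the Snu114 strain. GLC7, for the catalytic subunit of the phosphatase that opposes the Snf1 kinase, rose by 0.71 after 8 h in the Dib1 strain.

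Of 8 genes of Gal4 coactivators (GAL11, SPT20, SPT3, GCN5, TRA1, MED2 and PGD1) and of the Snf1 kinase (GAL83), 1 rose after 8 h and 0 after 4 h in the Snu114 strain, and 1 rose at each time in the Dib1 strain, with 0 falls. The share of all genes called higher was 3.27% after 8 h and 3.78% after 4 h in the Snu114 strain, and 13.7% and 5.17% in the Dib1 strain. The share called lower was 5.71%, 7.68%, 15.1% and 10% in the same order. The median log2 change of the 8 genes was 0.17 and 0.05 in the Snu114 cells and 0.14 and 0.45 in the Dib1 cells. TRA1, for the large subunit of the SAGA and NuA4 complexes that contacts activators, rose by 1.58 ± 0.27 after 8 h in the Snu114 strain and by 2.31 ± 0.29 in the Dib1 strain. GAL83, for a subunit of the Snf1 kinase, rose by 0.70 ± 0.21 after 4 h in the Dib1 strain (limma adjusted p = 0.047). The genes of the lists named here were tested in the fit over all genes, with the background shares given above.

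Likeness to a member was described by Pearson's r of log2 values over the 18 libraries among 5241 genes with a mean of at least 10 CPM. The libraries form separate glucose and galactose clusters, so a high r over all 18 mostly reflects that contrast, and r within the 12 glucose libraries is given with it. For GAL1 the nearest genes outside the members were RGL1 (0.992, and 0.0884 within glucose), OYE3 (0.990 and -0.369), ADH6 (0.988 and -0.291), MAL33 (0.982 and 0.0947) and YEL057C (0.982 and -0.228). RGL1 averaged 4112 normalised counts after 8 h and 4660.1 after 4 h in the Snu114 strain, against 31625 in galactose, and 4975 and 5521 against 35911 in the Dib1 strain. RGL1 and ADH6 had 1 Gal4 match in their window, and OYE3 had 0.

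For GCY1 the nearest genes were OYE3 (0.978, and 0.529 within glucose), BNS1 (0.975 and 0.811), ADH6 (0.973 and 0.414), TMT1 (0.967 and 0.707) and YLL056C (0.963 and 0.0247). OYE3 and ADH6 encode NADPH-dependent oxidoreductases. For PGM2 they were HXT6 (0.963, and 0.877 within glucose), HXK1 (0.943 and 0.778), SYM1 (0.943 and 0.805), SDH2 (0.940 and 0.776) and MCR1 (0.940 and 0.754). HXT6 is a high-affinity glucose transporter, and SDH2 a subunit of succinate dehydrogenase. All 5 neighbours of PGM2 kept an r above 0.75 within glucose, where GAL2 had 0.833 and GAL1 0.506 with PGM2.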

How the data were processed

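Poly(A) libraries of 18 samples were compared. Per the submitters' processing notes, the authors used Trimmomatic, STAR, HTSeq and DESeq2 with the sacCer3 genome; versions and the strand setting are not given in the sources used here. The deposited gene tables hold a normalised signal, the count divided by 1 size factor per library, and the authors' own comparisons as log2 fold changes and adjusted p-values, which are not used as results here. All values were whole multiples of 1 step (tolerance 0.001), so reads could be recovered. Depth was 17065989 to 58615022 gene reads per library. The file headers call group averages technical repeats, and the labels name no separate cultures, so p-values may measure technical spread only.

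limma 3.58.1 (R 4.3.3) was fitted on log2(normalised value + 1), by strain (6447 genes with reads) and on all 18 libraries for differences between strains (6476 genes), with Benjamini-Hochberg adjustment over all genes and a threshold of 0.05. The fit was also run on simulated libraries drawn independently of each other. These lack the shared deviations of same-numbered libraries described below, so no conclusion about the calls is drawn from them. Alternatives were edgeR 4.0.16, DESeq2 1.42.0, other scalings, pseudocounts and filters, a replicate block, and leaving out each library. Shares and ratios had exact permutation tests. RPKM and shares used recovered reads; intron tables were not used. Same-numbered libraries deviated together in the Dib1 strain (r 0.117 to 0.63) and between 4 h and galactose in the Snu114 strain (0.32 to 0.499). For Snu114 8 h, 1 pair was below 0.1 in each comparison (-0.078 and -0.164). The numbers pair the libraries only in part, since some libraries of unlike number had a higher r. Dib1 8 h replicate 1 had 0.378 with 4 h replicate 2, against 0.117 with 4 h replicate 1. The main fits and the exact tests used the group only, and pairing entered only through the replicate block. No libraries were duplicates (chi-square per degree of freedom of at least 12.4). Named genes were all members, the driven genes, cluster neighbours, list genes with the largest called changes (up to 3 each way, all of lists of up to 5), and the 5 genes most like GAL1, GCY1 and PGM2. Members and lists were chosen with earlier results of these data known. Sequences come from RefSeq R64, in which 5914 identifiers were found, with Biopython and Python scripts.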

Additional observations from a re-analysis of the deposited data

How the results depend on the processing

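Against galactose, 491 of 504 values of the 9 members under an alternative kept their sign and their side of the threshold, 12 lost a call, 1 gained one and 0 changed sign. Over all comparisons 1650 of 1674 were the same, 21 were weaker and 3 stronger; 111 changed sign, none of them past the threshold. The replicate block ended the call of PGM2 at 4 h in the Snu114 strain (-1.40, adjusted p = 0.055) and changed no other member call. That call was also lost with a pseudocount of 5 (0.051) and with edgeR (0.052). The number of members called higher between 8 h and 4 h in the Snu114 strain ran from 0 to 1 when single libraries were left out, as did the numbers called lower and higher in the Dib1 strain. DESeq2 gave 1 member, GAL4, whose change differs between strains at 8 h (0.76, adjusted p = 0.037), where limma gave 0. Without GCY1 and PGM2, the 8 h minus 4 h difference in the share of reads was 0.00108 percentage points in the Snu114 strain and -0.000303 in the Dib1 strain, against 0.0136 and 0.00927 with them. With GAL10 as denominator the log2 ratio of the driven gene differed from galactose by 3.71 (4 h) and 3.73 (8 h) in the Snu114 strain and by 1.95 and 2.60 in the Dib1 strain. The cause of these shifts was not tested. Depth limits GAL2 in glucose most, where a library held as few as 26 reads. The all-gene counts behind the background shares moved more than the members' counts. When single libraries were left out, the Snu114 strain gave 98 to 309 genes higher and 197 to 434 lower after 8 h against galactose (211 and 368 with all), 73 to 231 and 232 to 488 after 4 h (244 and 495), and 3 to 94 and 2 to 47 between the times (80 and 43). The Dib1 strain gave 555 to 741 and 655 to 804 after 8 h (884 and 976), 93 to 627 and 326 to 746 after 4 h (333 and 646), and 217 to 714 and 105 to 606 between the times (556 and 373). With the replicate block the counts were 491 and 621, 677 and 820, and 205 and 180 in the Snu114 strain and 1109 and 1191, 606 and 873, and 750 and 608 in the Dib1 strain. DESeq2 gave 432 and 559, 506 and 740, and 246 and 191 in the Snu114 strain and 1028 and 1139, 667 and 822, and 747 and 672 in the Dib1 strain. For the change that differs between strains, the counts with all libraries, with the block and with DESeq2 were 207 and 210, 343 and 398, and 342 and 356 after 8 h; 22 and 10, 79 and 48, and 112 and 46 after 4 h; and 11 and 29, 87 and 142, and 113 and 149 between the times. Scaling to the library total changed no member call but moved the split of higher and lower genes: 165 and 572 after 4 h against galactose in the Snu114 strain, 134 and 35 between the times there (with the median of all genes at 0.122), 203 and 123 for the difference between strains after 8 h, 2 and 9 for that between the times, and 86 and 52 for the levels of the strains after 4 h (106 and 39 in the main scaling).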
